A study of Homo sapiens with 12 samples.

Results

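The stability of 10 chemokine, cytokine and inhibitor mRNAs was examined in MDA-MB-231, a triple-negative human breast cancer line with mesenchymal features. The genes were chosen as NF-kB-driven messages with AU-rich tails, with earlier results of these data known, and all 10 were found by symbol among the 34602 genes of the authors' deposited table of stability. They were IL8, CXCL1, CXCL2, CXCL3, IL6, IL11, LIF, IL1B, TNFAIP3 and NFKBIA. Of these, 8 encode secreted proteins, whereas TNFAIP3 and NFKBIA encode intracellular inhibitors of NF-kB, so the name chemokine and cytokine does not cover them. No 3′ end sequence was used here, so the AU-rich tails were taken as known and not checked.

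The study asked how a tRNA-Glu(UUC) and a tRNA-Arg(CCG) affect mRNA stability. A tRNA-Glu or a tRNA-Arg locus (the labels call them chr1.trna5 and chr16.trna1) was over-expressed from a stable line, and a mock line served as control. RNA was taken after 0 or 9 h in α-amanitin at 10 µg/mL, which blocks RNA polymerase II, and was hybridised to 12 Illumina expression BeadChips in 6 groups of 2 (mock, tRNA-Arg and tRNA-Glu cells at each time). With synthesis blocked, what is left of an mRNA at 9 h relative to 0 h depends on its decay while it is above background. For an mRNA near background by 9 h, the ratio follows its level at 0 h instead, and levels were not read by gene name. In bulk RNA a loss of cells and a loss of RNA per cell cannot be told apart. The labels do not say whether each line was a clone or a pool, nor whether replicates were separate cultures.

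NF-kB is a transcription factor held in the cytoplasm by IkB proteins until a signal such as IL1B or TNF leads to their destruction. The messages it turns on include chemokines that draw neutrophils, cytokines of the IL6 family, and its own inhibitors, which close the loop. Many of them carry AU-rich elements in their 3′ ends, which proteins such as ZFP36 bind to recruit the deadenylation and decay machinery, so these mRNAs are known for short lives that are lengthened while the cell is stimulated. MDA-MB-231 cells are known for constitutive NF-kB activity and for secreting IL8 and IL6.

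The stretches of 100 bases just before the transcription start are shown for the 4 CXC chemokine genes and for NFKBIA, because they hold an NF-kB-type motif and show how alike the chemokine genes are, and for IL11, which holds no match and had the lowest stability scores of the group. Sequences are from RefSeq on GRCh38.p14, read 5′ to 3′ on the strand of the gene, with matches to GGNNTTTCC on either strand in capitals. They lie at chr4:73740469-73740568 (plus strand) for IL8, chr4:73869293-73869392 (plus) for CXCL1, chr4:74099196-74099295 (minus) for CXCL2, chr4:74038690-74038789 (minus) for CXCL3, chr14:35404750-35404849 (minus) for NFKBIA and chr19:55370464-55370563 (minus) for IL11, all upstream of the first exon.
IL8: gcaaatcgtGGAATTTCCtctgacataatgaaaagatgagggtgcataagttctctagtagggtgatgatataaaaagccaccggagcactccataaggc
CXCL1: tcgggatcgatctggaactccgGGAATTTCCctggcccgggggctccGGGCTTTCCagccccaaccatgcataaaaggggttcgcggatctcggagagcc
CXCL2: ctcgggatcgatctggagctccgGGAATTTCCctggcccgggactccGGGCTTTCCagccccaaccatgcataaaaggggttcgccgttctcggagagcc
CXCL3: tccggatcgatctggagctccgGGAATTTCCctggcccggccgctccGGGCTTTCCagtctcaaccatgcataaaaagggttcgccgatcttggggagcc
NFKBIA: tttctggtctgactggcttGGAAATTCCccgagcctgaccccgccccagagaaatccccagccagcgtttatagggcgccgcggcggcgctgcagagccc
IL11: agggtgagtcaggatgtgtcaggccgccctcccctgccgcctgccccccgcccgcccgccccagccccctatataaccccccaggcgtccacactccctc

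The promoter table held 9 of the 10 genes, all but LIF. A match to GGNNTTTCC in the 250 bases before and 50 bases after the start was present in 7 of these 9, namely IL8, the CXCL genes, IL6, TNFAIP3 and NFKBIA, and in 6.26% of all 35116 promoters. This spelling was chosen with the scores known and after other spellings had been scanned. The genes were picked as NF-kB-driven and the CXCL promoters are near copies, so 7 of 9 beside 6.26% is a description and not a test. IL11 and IL1B had no match, which says only that these letters are not in this window. Of the genes not shown, IL6 and TNFAIP3 hold a match, and the scores in both lines were negative for IL6 and positive for TNFAIP3. The first match lay at -91 to -83 in IL8, at -78 to -70 in CXCL1 and CXCL3, and at -77 to -69 in CXCL2. NFKBIA held a further match at -242 to -234, outside the stretch shown. In aligned stretches of 100 bases, CXCL1 and CXCL2 were identical at 95 bases and CXCL1 and CXCL3 at 90, whereas IL8 and CXCL1 were identical at 51. A promoter bears on synthesis, which α-amanitin blocks, and no link between these letters and the scores was tested. The mRNAs of CXCL1, CXCL2 and CXCL3 are also close relatives, so an array probe for one may read the others.

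**Figure D1:**
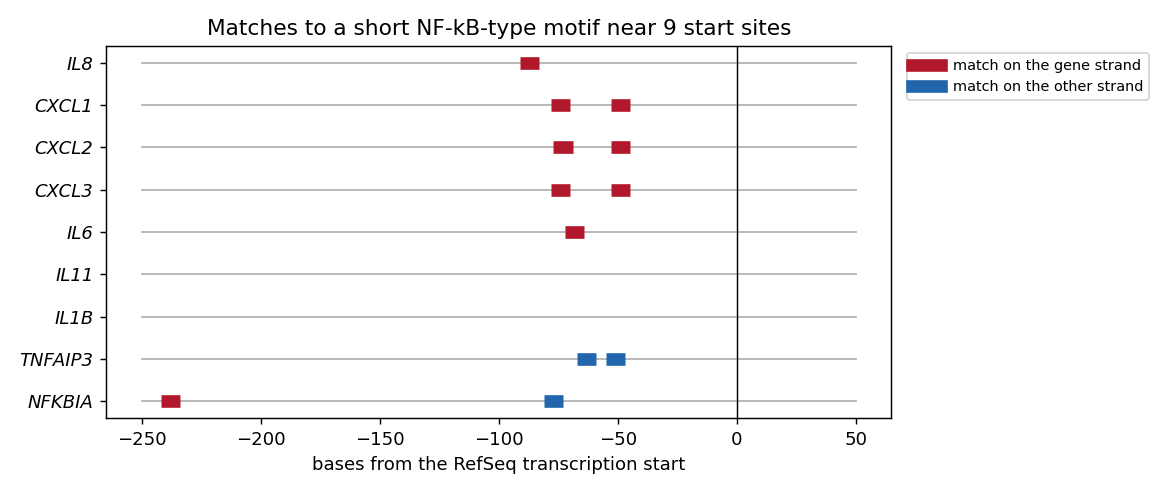
Positions of GGNNTTTCC matches in the 250 bases before and 50 bases after the RefSeq transcription start of 9 genes (x axis, bases from the start; 1 row per gene). Red bars are matches on the gene strand and blue bars matches on the other strand; 7 genes have a match, and IL11 and IL1B have none.

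All scores below come from the authors' deposited table, which gives each gene 1 signed stability score for tRNA-Glu and 1 for tRNA-Arg cells, both against control. How the scores were computed, their scale and any log base are not stated. A positive score is read from the header as more stable in the tRNA line. The authors' deposited table gives no score per replicate and no p-value, so no difference between genes or lines was tested, and each score is set against the spread over all genes instead. The median of all genes was 0.00489 for tRNA-Glu and 0.00166 for tRNA-Arg, and the SD over genes was 0.135 and 0.0846, in the authors' deposited table. Levels of expression were not read by gene name here. A score near 0 or far from 0 may therefore belong to an mRNA that was hardly detected, members included. The markers of the cell line were not checked.

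The arrays give an idea of the error behind such scores, although their probes could not be named. For each of 47231 probes, the change from 0 to 9 h in a tRNA line minus that in mock cells was computed on log2 of the authors' processed intensity from 8 arrays. The root mean square standard error of that difference was 0.22 on the log2 scale for tRNA-Glu, beside an SD over probes of 0.27. For tRNA-Arg the standard error was 0.20 and the SD over probes 0.21. Replicate error therefore came to 79.7% of the spread over probes for tRNA-Glu and to 94.5% for tRNA-Arg. The array tRNA-Glu 0 h replicate 1 stood apart, with a mean correlation of 0.991 to the other 0 h arrays against 0.993 to 0.994 for the other 5. The scores could not be recomputed without it. In the processed values the median intensity of the arrays ran only from 56.2 to 56.3 over both times. A change from 0 to 9 h on these values is therefore relative to the bulk of probes and not an absolute loss. Whether the same holds for the authors' scores is not stated.

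The 10 mRNAs fell on both sides of 0. In the authors' deposited table, 6 had positive scores in both lines (IL8, CXCL1, CXCL2, CXCL3, TNFAIP3 and NFKBIA), 3 had negative scores in both (IL6, IL11 and IL1B), and LIF changed sign between the lines. Over all 34602 genes of the authors' deposited table, 12554 were above 0 in both lines, 11227 were below 0 in both and 10821 differed in sign. Both scores use the same mock cells, so equal signs in both lines are not independent. The median of the 10 was 0.0832 for tRNA-Glu and 0.0660 for tRNA-Arg cells in the authors' deposited table. Scores above 0.2 for tRNA-Glu belonged to 3 of the 10 (IL8, CXCL1 and TNFAIP3) and to 5.13% of all genes, in the authors' deposited table. Below -0.2 for tRNA-Glu was 1 of the 10 (IL11), beside 4.76% of all genes, in the authors' deposited table. For tRNA-Arg, 1 of the 10 was above 0.2 (IL8) beside 1.61% of all genes, and 1 was below -0.2 (IL11) beside 1.71%, in the authors' deposited table. These counts describe single genes rather than the group.

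**Figure D2:**
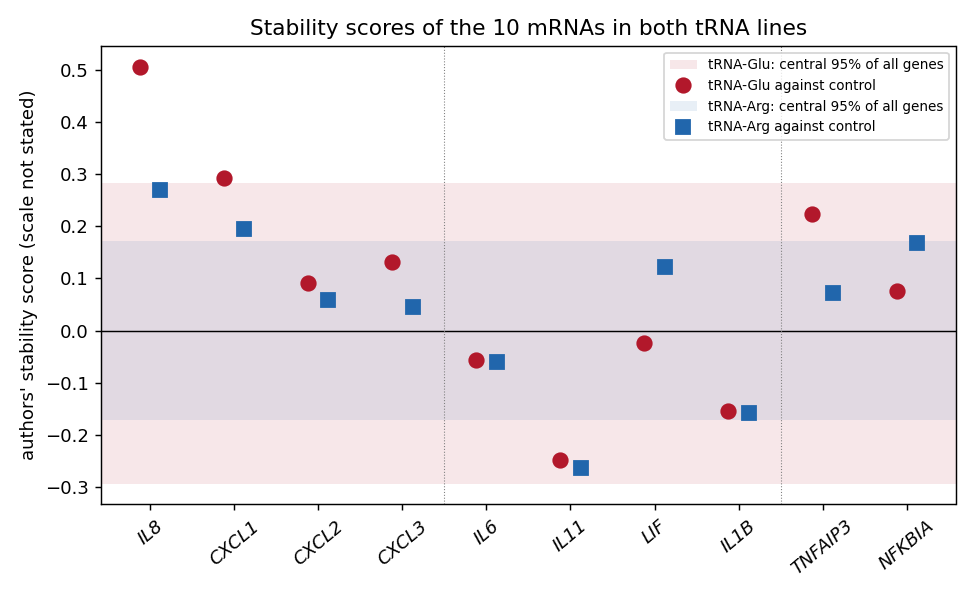
The authors' stability score (y axis, scale not stated) of the 10 mRNAs in tRNA-Glu (red circles) and tRNA-Arg cells (blue squares) against control, in the order chemokines, other cytokines, inhibitors; shaded bands hold the central 95% of all genes for each line. IL8 (0.506 and 0.270) and CXCL1 (0.293 and 0.194) lie above the band of each line, and IL11 (-0.249 and -0.264) lies below the tRNA-Arg band.

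The CXC chemokines, ligands of CXCR2 that attract neutrophils, included the 2 highest scores of the group in both lines. IL8, which also binds CXCR1, had 0.506 for tRNA-Glu and 0.270 for tRNA-Arg cells in the authors' deposited table. These ranked 174 and 197 from the top of 34602 genes, at percentiles 99.5 and 99.4, in the authors' deposited table. In units of each column's SD they were 3.76 for tRNA-Glu and 3.19 for tRNA-Arg, so IL8 lay about as far out in both lines of the authors' deposited table. Only 59 other genes scored at least as high as IL8 in both lines at once in the authors' deposited table. CXCL1, first known as a growth factor of melanoma cells, had 0.293 and 0.194, at percentiles 97.7 and 98.2, in the authors' deposited table. The scores of CXCL1 were 2.18 and 2.29 column SDs, and 238 other genes scored as high in both lines of the authors' deposited table.

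CXCL3 and CXCL2, the nearest relatives of CXCL1, had smaller scores. CXCL3 had 0.132 for tRNA-Glu and 0.0442 for tRNA-Arg, at percentiles 90.6 and 74.6, in the authors' deposited table. CXCL2 had 0.0906 and 0.0592, at percentiles 84.6 and 80.8, in the authors' deposited table. Neither was outside the central 95% of all genes in either line. The order IL8, CXCL1, CXCL3, CXCL2 for tRNA-Glu became IL8, CXCL1, CXCL2, CXCL3 for tRNA-Arg, and none of these steps could be tested. Because CXCL1, CXCL2 and CXCL3 are close relatives, how far a probe of one also reads another is uncertain. Only promoter stretches were compared here, and no mRNA or probe sequences.

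The 4 chemokine genes belong to 1 cluster on chromosome 4, where the RefSeq annotation of GRCh38.p14 places CXCL6, PF4V1, PF4, PPBP and CXCL5 between IL8 and CXCL2. Those 5 neighbours encode other CXC chemokines, among them the platelet products PF4 and PPBP. Their scores ran from -0.0570 to 0.0658 for tRNA-Glu and from -0.0196 to 0.0653 for tRNA-Arg cells in the authors' deposited table. All 4 members lay above that range for tRNA-Glu, and IL8 and CXCL1 lay above it for tRNA-Arg cells, in the authors' deposited table. How much of each neighbour was expressed was not measured by name.

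IL6, IL11 and LIF encode cytokines that signal through the shared receptor chain IL6ST, and IL1B encodes a ligand that itself activates NF-kB. IL11, known in breast cancer for its part in bone metastasis, had -0.249 for tRNA-Glu and -0.264 for tRNA-Arg cells in the authors' deposited table. It was the lowest of the 10 in both lines, at percentile 3.31 for tRNA-Glu and 0.711 for tRNA-Arg, the latter rank 247 from the bottom, in the authors' deposited table. In column SDs IL11 was at -1.85 and -3.12, so it lay farther from the bulk of genes for tRNA-Arg, although the scores themselves were nearly equal in the authors' deposited table. There were 164 other genes at least as low as IL11 in both lines of the authors' deposited table.

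IL1B had -0.155 for tRNA-Glu and -0.159 for tRNA-Arg, at percentiles 6.76 and 2.94, in the authors' deposited table. IL6 had -0.0557 and -0.0604, at percentiles 21.3 and 17.4, in the authors' deposited table. Both IL1B and IL6 were inside the central 95% of all genes for both lines of the authors' deposited table. The scores of IL6, IL11 and IL1B thus differed between the lines by 0.0147 or less, in the authors' deposited table. Because both scores use the same mock cells, near-equal scores in the lines are not independent. LIF, known for holding stem cells undifferentiated, had -0.0245 for tRNA-Glu and 0.121 for tRNA-Arg, at percentiles 34.3 and 93.9, in the authors' deposited table. The difference of tRNA-Glu minus tRNA-Arg of LIF was -0.146, at percentile 5.83 of that difference over all genes, the lowest of the 10 in the authors' deposited table.

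**Figure D3:**
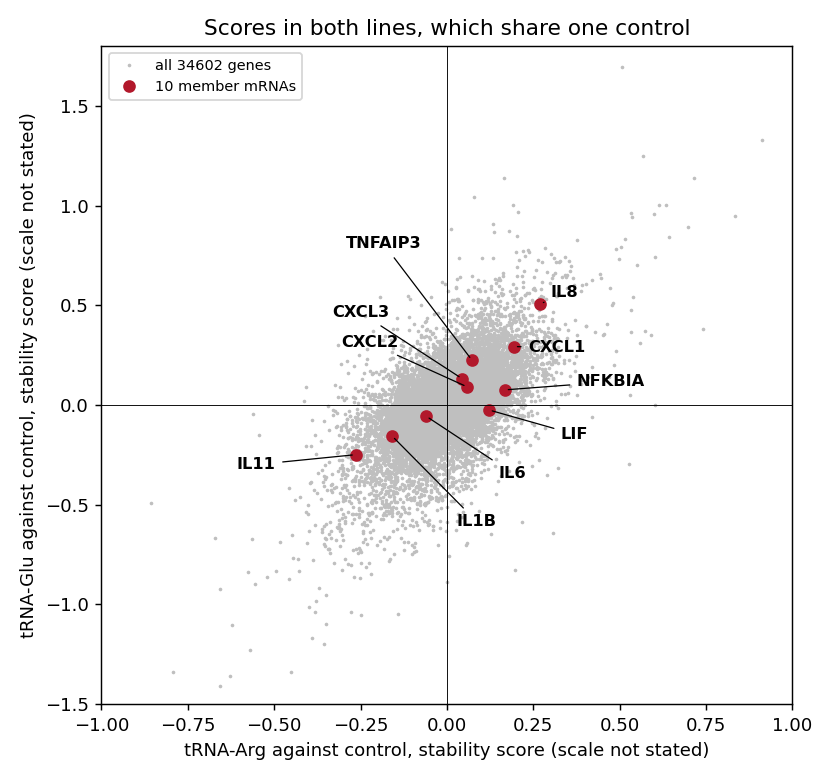
Stability scores of all 34602 genes (grey) and the 10 mRNAs (red, labelled) for tRNA-Arg (x axis) and tRNA-Glu (y axis) against control, scale not stated. IL8 and CXCL1 lie up and to the right, IL11 and IL1B down and to the left, and LIF is the member on opposite sides of 0; the lines share a control, so the slope of the cloud is not a result.

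The inhibitors both had positive scores, but in a different order in the lines. TNFAIP3, the ubiquitin-editing enzyme A20 that shuts off signalling to NF-kB, had 0.224 for tRNA-Glu and 0.0728 for tRNA-Arg, at percentiles 95.9 and 85.1, in the authors' deposited table. NFKBIA, the IkB protein that holds NF-kB in the cytoplasm, had 0.0758 and 0.167, at percentiles 81.3 and 97.3, in the authors' deposited table. The difference of tRNA-Glu minus tRNA-Arg was 0.152 for TNFAIP3 and -0.0915 for NFKBIA, at percentiles 94.0 and 11.5, in the authors' deposited table. That of IL8 was 0.236, at percentile 97.5 and the highest of the 10, in the authors' deposited table. The SD over genes was larger for tRNA-Glu (0.135 against 0.0846), so a gene far out in both lines tends to a large difference. In column SDs IL8 was at 3.76 for tRNA-Glu and 3.19 for tRNA-Arg. Differences of tRNA-Glu minus tRNA-Arg do not contain the mock cells if the scores are additive, which is not stated.

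The other genes of the pathway were read from 7 lists with 153 genes, chosen with earlier results of these data known, and all 153 had a score. Of them 11 were above 0.2 and 19 below -0.2 for tRNA-Glu, beside 5.13% and 4.76% of all genes, in the authors' deposited table. For tRNA-Arg 3 were above and 5 below, beside 1.61% and 1.71% of all genes, in the authors' deposited table. The counts of each list below are read against these same shares. Their medians were -0.00941 and -0.000925 in the authors' deposited table. In the following, genes among the 4 with the largest score in size are named for each list.

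None of the 22 other chemokines passed 0.2 in size in either line, and their medians were 0.0254 for tRNA-Glu and 0.0105 for tRNA-Arg cells in the authors' deposited table. The largest in size were CCL26, an eotaxin, at 0.0737 and 0.135, the B cell attractant CXCL13 at -0.0953 and -0.0732, CX3CL1 at -0.0636 and -0.0833, and CCL5 at 0.0824 and -0.0249, in the authors' deposited table. Every score of this list for tRNA-Glu lay between -0.0953 and 0.0824 in the authors' deposited table, below the score of CXCL2, the lowest of the member chemokines. This did not hold for tRNA-Arg cells, where CCL26 (0.135), PPBP (0.0653) and CXCL5 (0.0596) lay above CXCL2 (0.0592) and CXCL3 (0.0442).

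Among 28 other cytokines and growth factors, 3 were above 0.2 and 1 below -0.2 for tRNA-Glu, and 2 were above and 0 below for tRNA-Arg cells, in the authors' deposited table. IL10, an anti-inflammatory cytokine, had 0.452 and 0.201, and CSF2, the granulocyte-macrophage growth factor and a textbook AU-rich mRNA, had 0.309 and 0.237 in the authors' deposited table. IL18 had 0.239 and 0.156, whereas CLCF1, an IL6-family cytokine, had -0.204 and -0.193 in the authors' deposited table. By distance over both scores in column SDs, the genes nearest to IL8 among the 162 others in the lists and the group were IL10, CSF2, CXCL1, NFKB1 and IL18, at 0.907, 1.51, 1.82, 2.27 and 2.40. Over the whole of the authors' deposited table, as many as 58 genes were nearer to IL8 than IL10 was, so this likeness rests on 2 values per gene and is shared by many genes.

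Of 14 receptors for these ligands, 1 was above 0.2 and 2 were below -0.2 for tRNA-Glu and 0 passed in either direction for tRNA-Arg cells, in the authors' deposited table. The shared IL6-family chain IL6ST had -0.268 and -0.175, the TNF receptor TNFRSF1A -0.359 and -0.162, and OSMR -0.199 and -0.0198, in the authors' deposited table. LIFR, the receptor chain for LIF, had 0.260 for tRNA-Glu and -0.0671 for tRNA-Arg cells in the authors' deposited table. The signs were opposite to those of LIF, but LIF itself was near 0 for tRNA-Glu (-0.0245, percentile 34.3), and no link was tested.

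NF-kB subunits, kinases and adaptors were 25 genes, with 3 above 0.2 and 4 below -0.2 for tRNA-Glu and 1 above and 0 below for tRNA-Arg cells, in the authors' deposited table. The subunit RELB had 0.256 and 0.137, while the subunit RELA had -0.327 and -0.0862, in the authors' deposited table. The kinases RIPK1 and MAP3K7, which act between receptor and NF-kB, had -0.373 and -0.239 for tRNA-Glu and -0.0337 and -0.119 for tRNA-Arg cells in the authors' deposited table. NFKB1, itself an NF-kB target, had 0.208 and 0.227 in the authors' deposited table.

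The list of other inhibitors held 18 genes, and some of them, such as BCL3 and IRAK2, are not plain inhibitors of NF-kB. For tRNA-Glu 1 was above 0.2 and 0 were below -0.2, in the authors' deposited table. For tRNA-Arg cells 0 were above and 1, BCL3, was below. NFKBIE, an IkB protein like NFKBIA, had 0.218 and 0.0827, and BCL3, an IkB relative that acts in the nucleus, had -0.0681 and -0.289, in the authors' deposited table. RNF11, a partner of TNFAIP3 in its editing complex, had -0.175 and -0.185, and the ribonuclease ZC3H12A, which cuts IL6 mRNA, had -0.170 and -0.00665, in the authors' deposited table.

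Other NF-kB targets were 24 genes, of which 2 were above 0.2 and 5 below -0.2 for tRNA-Glu and 0 were above and 2 below for tRNA-Arg cells, in the authors' deposited table. The protease PLAU had -0.399 and -0.336, the survival gene BCL2L1 -0.380 and -0.152, and the transcription factor IRF1 0.385 and -0.0104, in the authors' deposited table. SDC4, a cell surface proteoglycan, had -0.272 and 0.116 in the authors' deposited table. The medians of this list were -0.0161 and 0.00305, beside 0.0832 and 0.0660 for the 10 member mRNAs, in the authors' deposited table. Within the members, the medians were 0.212 and 0.126 for the 4 chemokines and -0.105 and -0.110 for the 4 other cytokines, in the authors' deposited table.

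The AU-rich element binding proteins and their kinases had the lowest median of the 7 lists for tRNA-Glu, -0.106 over 22 genes, and -0.00677 for tRNA-Arg cells in the authors' deposited table. Above 0.2 was 1 gene and below -0.2 were 7 for tRNA-Glu (5.13% and 4.76% of all genes), with 0 and 2 for tRNA-Arg cells (1.61% and 1.71%), in the authors' deposited table. ZFP36, which binds AU-rich elements and speeds decay, had 0.288 and 0.0196, and its relative ZFP36L2 had -0.543 and -0.181, in the authors' deposited table. Nucleolin, NCL, had -0.678 and -0.301 in the authors' deposited table. These are scores of the mRNAs of the binding proteins, and the amount of protein was not measured.

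**Figure D4:**
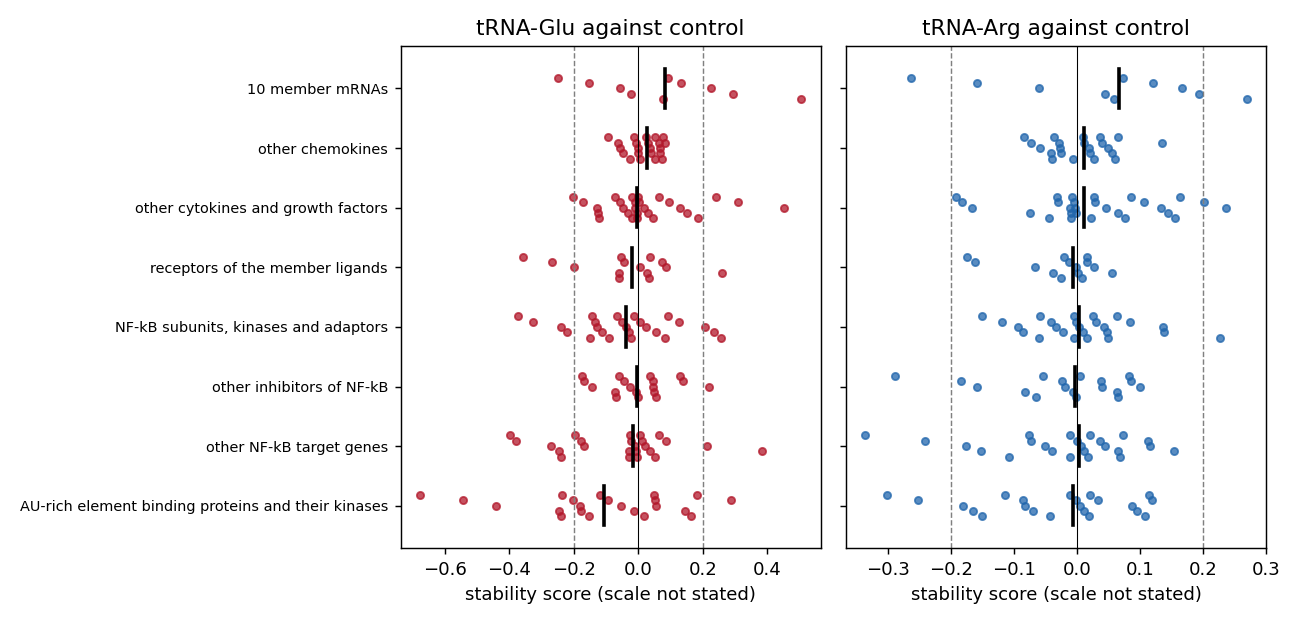
Stability scores (x axis, scale not stated) in tRNA-Glu (left) and tRNA-Arg cells (right) of the 10 mRNAs and of 7 lists of related genes, 1 point per gene, with the median as a black bar and dashed lines at -0.2 and 0.2. The other chemokines lie within the dashed lines in both panels, and the AU-rich element binding proteins have a median of -0.106 for tRNA-Glu.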

How the data were processed

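RNA of 12 samples was measured on Illumina expression BeadChips. Per the file headers, the authors' deposited table has for every gene a stability score of either tRNA line against control, computed by steps that are not stated. The deposited non-normalized table and the authors' processed values hold intensity per probe on a linear scale, per the file headers and the values; the submitters' processing notes name lumi, without a version or step. A further 12 per-sample columns headed by a chip position were not used.

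Probes were not matched to genes, so the planned limma tests of the 10 mRNAs on the arrays, with their alternatives, were not run. Scores were read by symbol, ranked among all genes and counted past 0.2 in size. The 10 members and the 7 lists were chosen with earlier results of these data known. In each list the 4 genes with the largest score in size in either line are named, except for 1 item that is not reported here, and for IL8 the 5 nearest genes; NFKB1 is named by the latter. Where RefSeq symbols differ from those of the authors' deposited table (IL8 is CXCL8), synonyms were used, and all 10 matched. The error of a stability difference is the root of the summed replicate variances over 2, for 4 groups. The number of arrays limits the precision. Promoter scans were tested on simulated sequences. Tools were Python 3.11.15, pandas 2.3.3, numpy 2.4.6, Biopython 1.88 and matplotlib 3.10.9.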

Additional observations from a re-analysis of the deposited data

How the results depend on the processing

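No paired analysis was possible because the scores in the authors' deposited table come with no replicate values and no test, and for the same reason no replicate could be left out. All 20 member scores kept their sign when each column was centred on its median, which put the medians of the 10 at 0.0783 for tRNA-Glu and 0.0643 for tRNA-Arg and those of the 7 lists at -0.0143 and -0.00258. The counts moved with the threshold because it sets how many genes pass. At 0.3 the 10 mRNAs had 1 above and 0 below for tRNA-Glu (2.16% and 2.4% of all genes) and 0 in each direction for tRNA-Arg (0.39% and 0.431%). At 0.1 there were 4 above and 2 below for tRNA-Glu (13.6% and 11.4% of all genes), and 4 above and 2 below for tRNA-Arg (8.89% and 8.05%). At 2 column SDs there were 2 above, without TNFAIP3, and 0 below for tRNA-Glu (2.75% and 2.92% of all genes), and 2 above and 1 below for tRNA-Arg (2.64% and 2.55%). The 153 list genes had 20 above and 39 below at 0.1 for tRNA-Glu, 3 and 8 at 0.3, and 4 and 9 at 2 SDs. For tRNA-Arg they had 17 and 21 at 0.1, 0 and 2 at 0.3, and 11 below at 2 SDs. Against the 19526 genes without placeholder symbols, no percentile of a member moved by more than 3.99 points. Replicate error as a share of the spread over probes, alternatives chosen after seeing the data, was 68.9% for tRNA-Glu and 89.4% for tRNA-Arg in probes above the median probe, 82.2% and 99.3% with non-normalized intensity, and 78.2% and 102.1% with both changes, so for tRNA-Arg the brighter probes had the lower share only with processed values.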
